A study of Mus musculus with 2 samples.

Results

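The genes described here are the matrix metalloproteinases (Mmp), their tissue inhibitors (Timp), the ADAM proteases (Adam) and the secreted ADAMTS proteases (Adamts) of mouse liver. They were taken from the deposited expression table by symbol, as every name that starts with Mmp, Timp, Adam or Adamts followed by a digit. This gave 79 genes of 34556 distinct symbols: 4 Timp, 23 Mmp, 33 Adam and 19 Adamts genes, each with a single row. BALB/c mice aged 5 months gave liver RNA for 1 library labelled SRSF2-KO (genotype SRSF2-/-, with the deletion restricted to the liver according to the design text) and 1 library labelled WT. Below, each library is called the liver labelled SRSF2-KO or WT. Srsf2 codes for an SR protein that guides splice site choice. The sources used here do not name the driver of the deletion, the sex of the animals or the number of animals behind a library. The comparison addresses how the expression of these genes differed between the livers of both genotypes.

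The metalloproteinases and ADAM proteases share a zinc-dependent catalytic fold and are made with a propeptide that blocks the active site until it is removed. Secreted and membrane-type MMPs cut collagens, elastin and other matrix proteins, ADAMs mostly cut the outer part of membrane proteins ("shedding"), and ADAMTS enzymes process procollagens, proteoglycans and von Willebrand factor. TIMPs occupy the active site of these enzymes. In injured liver the balance between MMPs and TIMPs, made largely by stellate cells and macrophages, is known to bear on how much collagen is kept.

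Each value is an FPKM, in which the authors scaled fragments by transcript length and sequencing depth, so levels can be set side by side between genes. With 1 library per genotype no difference has a replicate check, none was tested and no p-value is given. Depth was estimated at 24400000 fragments for SRSF2-KO and 19400000 for WT from whole-read steps in the low values, and ratios carry 95% exact (Clopper-Pearson) intervals that cover counting error only. Srsf2 stood at 45.3 FPKM in the liver labelled SRSF2-KO and 38.2 FPKM in the liver labelled WT. The level of the targeted gene was thus not lower and did not bear out the label. A single FPKM value per gene cannot show whether part of the transcript was missing or whether the label is right. Of 16 widely used or liver genes looked up, 15 had values in both libraries and Alb, the albumin gene, was listed at 0 in both. A value of 0 may therefore be a failed estimate, and genes at 0 are described only as listed at 0. Other defining hepatocyte markers were present, with Apoa1 at 8305 (SRSF2-KO) and 10936 (WT) FPKM. In whole tissue, fewer cells of a type and less RNA per cell cannot be told apart.

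The balance of these genes lay towards higher levels in the liver labelled SRSF2-KO. With 1 FPKM added to each value, Mmp12, Mmp2, Timp1, Mmp14, Mmp15, Adam15 and Timp2 were at least 2-fold higher there. No member was at least 2-fold lower on that scale. Without the added 1 FPKM, Adam32 had a ratio of 0.396, which is more than 2-fold lower. Adamts2, Adamts10, Mmp23, Mmp11 and Adamts7 then had ratios from 2.14 to 4.70. The steepest was Mmp12, the macrophage elastase, and the most abundant was Mmp15, a membrane-anchored MMP. The widely expressed sheddase genes Adam9, Adam10 and Adam17 stayed within 1.5-fold, whichever library was higher. Differences below are log2((SRSF2-KO + 1)/(WT + 1)) of FPKM, which understates differences of low genes, and a gene counts as measured when either library gave 1 FPKM or more.

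Of the 79 members, 21 were measured, 31 had values above 0 but below 1 FPKM, and 27 were listed at 0 in both libraries. Among the measured members, 7 of 21 were at least 2-fold higher and none (0 of 21) reached 2-fold lower in the liver labelled SRSF2-KO. Over all 11428 measured rows of the table, the share at least 2-fold higher was 5.49% and that 2-fold lower or more 3.22%. The median log2 ratio of the 21 was 0.72, against -0.04 over all measured rows. Of the 21, 15 lay above 0, beside 46.1% of all measured rows. These counts lean on the liver labelled SRSF2-KO, since 7 members passed the minimum only there and 1 only in the liver labelled WT. Taking only the 14 members with at least 1 FPKM in the liver labelled WT, Mmp14, Mmp15, Adam15 and Timp2 (4 genes) were at least 2-fold higher and 0 were lower by 2-fold, beside 3.07% and 3.5% of all rows chosen in that way. Their median log2 ratio was 0.30, beside -0.08 for those rows.

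**Figure D1:**
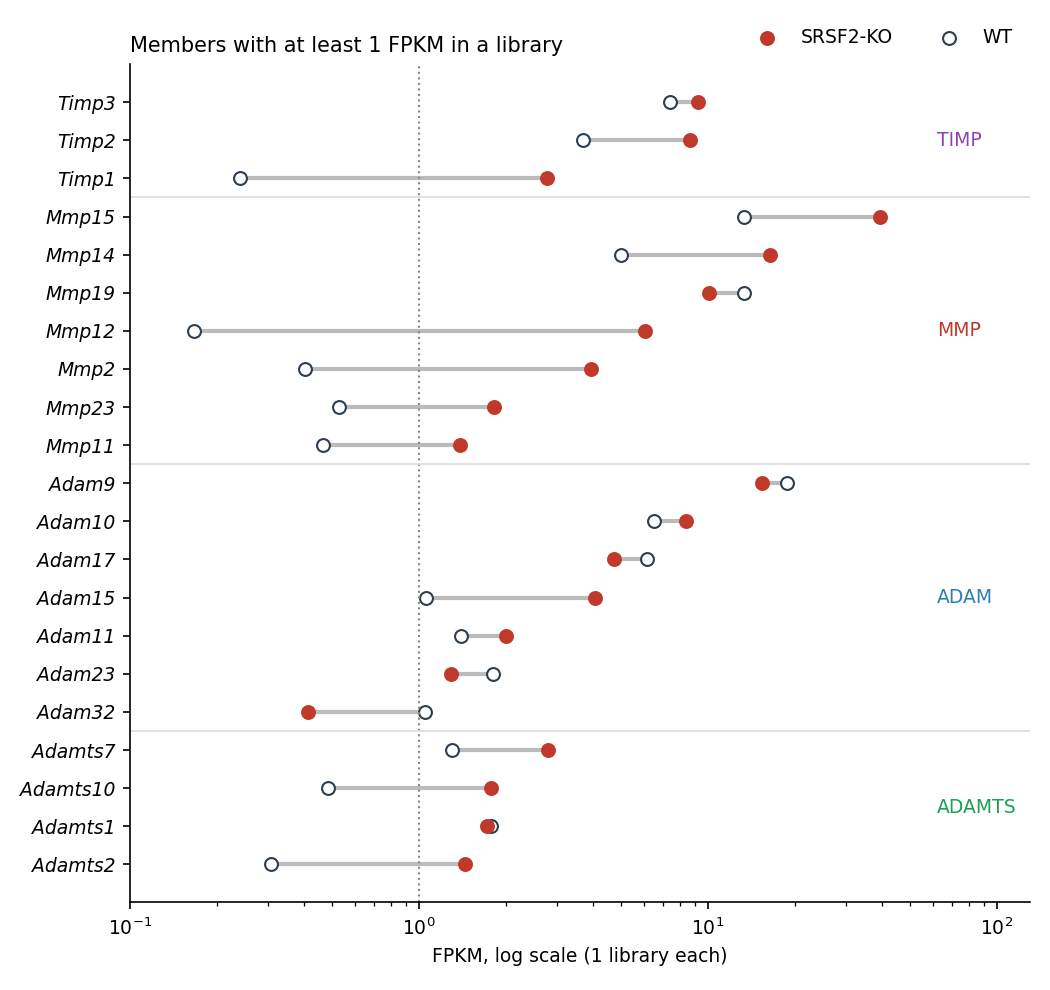
FPKM on a log axis of the 21 measured members, grouped by family and ordered by level, with filled points for the liver labelled SRSF2-KO and open points for the liver labelled WT (1 library each); the dotted line marks 1 FPKM. Mmp15 is the most abundant in the liver labelled SRSF2-KO at 39.4 FPKM and Adam9 in the liver labelled WT at 18.7 FPKM, and the widest gap is that of Mmp12.

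Promoter sequences are shown for the genes at least 2-fold higher in the liver labelled SRSF2-KO, because they had the highest log2 ratios among the members. Mmp13 is added as an example of a window with AP-1, PEA3 and TATA letters. Windows of other members, Mmp3 and Mmp7 among them, hold these letters as well. RefSeq (GRCm38.p6) promoters were matched by symbol for 49 of the 79 members, 14 of the 21 measured and 6 of those 7 genes. Each run is the 250 bases before the transcription start, 5′ to 3′ on the gene's strand. Their positions are chrX:20869916-20870165 (+ strand) for Timp1, chr11:118355412-118355661 (- strand) for Timp2, chr14:54431348-54431597 (+ strand) for Mmp14, chr8:95352046-95352295 (+ strand) for Mmp15, chr9:7344147-7344396 (+ strand) for Mmp12, chr9:7272264-7272513 (+ strand) for Mmp13 and chr3:89350029-89350278 (- strand) for Adam15. Capitals mark exact matches, on either strand, of the motifs of AP-1 (TGANTCA), of PEA3 and other ETS factors (AGGAAG), of Sp1 at GC boxes (GGGCGG) or of the TATA-binding protein (TATAAA).
Timp1: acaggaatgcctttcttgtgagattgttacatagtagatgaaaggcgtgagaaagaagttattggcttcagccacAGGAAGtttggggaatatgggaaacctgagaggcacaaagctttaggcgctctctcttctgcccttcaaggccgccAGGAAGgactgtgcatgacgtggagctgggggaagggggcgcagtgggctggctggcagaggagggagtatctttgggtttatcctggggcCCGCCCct
Timp2: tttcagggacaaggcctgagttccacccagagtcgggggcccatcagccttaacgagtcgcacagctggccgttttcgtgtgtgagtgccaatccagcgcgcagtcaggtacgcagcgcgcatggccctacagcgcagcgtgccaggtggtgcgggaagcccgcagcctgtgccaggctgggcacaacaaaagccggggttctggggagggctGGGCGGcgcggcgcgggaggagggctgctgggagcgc
Mmp14: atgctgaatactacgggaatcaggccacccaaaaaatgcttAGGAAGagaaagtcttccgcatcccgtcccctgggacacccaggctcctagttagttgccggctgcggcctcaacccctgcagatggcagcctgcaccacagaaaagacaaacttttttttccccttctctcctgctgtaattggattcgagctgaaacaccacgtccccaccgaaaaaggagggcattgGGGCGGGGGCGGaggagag
Mmp15: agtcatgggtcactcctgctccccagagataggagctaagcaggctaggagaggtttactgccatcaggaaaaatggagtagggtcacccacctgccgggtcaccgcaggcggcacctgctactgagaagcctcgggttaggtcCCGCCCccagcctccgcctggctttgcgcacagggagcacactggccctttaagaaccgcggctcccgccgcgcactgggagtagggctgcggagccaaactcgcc
Mmp12: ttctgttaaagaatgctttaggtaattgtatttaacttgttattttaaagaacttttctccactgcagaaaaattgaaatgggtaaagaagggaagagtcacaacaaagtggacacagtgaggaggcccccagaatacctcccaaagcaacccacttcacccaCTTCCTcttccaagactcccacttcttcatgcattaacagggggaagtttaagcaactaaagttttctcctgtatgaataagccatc
Mmp13: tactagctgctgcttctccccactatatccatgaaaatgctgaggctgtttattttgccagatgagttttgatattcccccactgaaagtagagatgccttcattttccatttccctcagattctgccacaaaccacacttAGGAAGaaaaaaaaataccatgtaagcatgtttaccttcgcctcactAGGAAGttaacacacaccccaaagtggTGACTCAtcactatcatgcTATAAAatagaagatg
Adam15: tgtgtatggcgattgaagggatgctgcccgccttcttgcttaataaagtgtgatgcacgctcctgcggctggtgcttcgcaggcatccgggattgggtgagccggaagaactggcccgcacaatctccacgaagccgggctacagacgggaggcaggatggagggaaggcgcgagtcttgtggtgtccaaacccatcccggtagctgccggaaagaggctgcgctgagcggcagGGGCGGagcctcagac

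In this window a GC box was found in 5 of the 6 promoters of higher genes, all but Mmp12, and in 11 of the 14 measured members (78.6%), beside 58.9% of the promoters of all genes with at least 1 FPKM in a library. PEA3 letters were found upstream of Timp1 (at -175 and -99 from the start), Mmp14 (at -209) and Mmp12 (at -87, on the opposite strand), that is in 3 of those 6 and in 6 of the 14 measured members (42.9%), beside 27.9% of the promoters of all genes with at least 1 FPKM in a library. AP-1 letters were in none of the 14 measured members, beside 4.48% of the promoters of genes at that level, and TATA letters in 1 of the 14 (7.14%), beside 6.56%. Over all 49 members with a sequence, AP-1 letters were in 10 (20.4%) and TATA letters in 12 (24.5%), beside 6.85% and 13% of all 27025 promoters. Mmp13 carried AP-1 letters at -35 and TATA letters at -16 from the annotated start, with PEA3 letters at -109 and -62. GC content was 54.4% in the Timp1 window and 68% in that of Timp2, against 40% for Mmp12 and 40.4% for Mmp13. These are matches of letters, not binding sites.

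The inhibitor genes were led by Timp1, a broad MMP inhibitor known to be induced in fibrotic liver. Timp1 stood at 2.77 FPKM in the liver labelled SRSF2-KO and 0.239 FPKM in the liver labelled WT. Its ratio was 11.6, with a counting interval of 3.92 to 61.3 from an estimated 46 (SRSF2-KO) and 3 (WT) fragments, so the size of this gap is known only loosely. Timp2, which inhibits MMPs and also takes part in the activation of the MMP2 precursor on the cell surface, stood at 8.70 FPKM in the liver labelled SRSF2-KO and 3.69 FPKM in the liver labelled WT, a ratio of 2.36 (interval 1.95 to 2.86). Timp3, a matrix-bound inhibitor that also blocks ADAM17 and aggrecanases, was the most abundant inhibitor in both libraries. It stood at 9.22 FPKM in the liver labelled SRSF2-KO and 7.39 FPKM in the liver labelled WT, a ratio of 1.25 (interval 1.09 to 1.43). Timp4 was at 0.166 FPKM in the liver labelled SRSF2-KO and listed at 0 in the liver labelled WT. The summed level of the 4 inhibitors was 20.9 FPKM in the liver labelled SRSF2-KO and 11.3 FPKM in the liver labelled WT. Timp3 made up 44.2% of that sum in the liver labelled SRSF2-KO and 65.3% in the liver labelled WT, and Timp1 made up 13.3% (SRSF2-KO) and 2.11% (WT). In the annotation Timp1 and Timp3 lie inside the synapsin genes Syn1 and Syn3 on the opposite strand, Timp4 overlaps Syn2 in the same way, and strandedness is not given. Exons of Timp3 and Syn3 overlap, as do those of Timp4 and Syn2. Syn1 stood at 0.147 FPKM in the liver labelled SRSF2-KO and 0.117 FPKM in the liver labelled WT, and Syn3 at 0.593 (SRSF2-KO) and 0.404 (WT) FPKM, all below the levels of the Timp gene inside it. Syn2 was at 0.111 FPKM in the liver labelled SRSF2-KO and listed at 0 in the liver labelled WT, as Timp4 was, and reads of that overlap cannot be told apart without strand.

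Membrane-type MMPs, which stay anchored at the cell surface, held the most transcript among the MMP classes. Mmp15 (MT2-MMP) stood at 39.4 FPKM in the liver labelled SRSF2-KO and 13.3 FPKM in the liver labelled WT. Its ratio of 2.96 had an interval of 2.78 to 3.15, the tightest among the 7 genes. Mmp14 (MT1-MMP), a collagenase of the cell surface and the main activator of the MMP2 precursor, stood at 16.4 FPKM in the liver labelled SRSF2-KO and 5.02 FPKM in the liver labelled WT, a ratio of 3.27 (interval 2.83 to 3.79). All 6 genes of this class had the higher value in the liver labelled SRSF2-KO, but the other 4 were below 1 FPKM in both. Among these, Mmp24 (MT5-MMP, best known from neurons) was at 0.291 FPKM in the liver labelled SRSF2-KO and listed at 0 in the liver labelled WT. Its exons overlap those of BC029722 on the opposite strand (12.7 FPKM in the liver labelled SRSF2-KO and 7.18 FPKM in the liver labelled WT), and without strand their reads cannot be told apart. The class summed to 56.3 FPKM in the liver labelled SRSF2-KO and 18.4 FPKM in the liver labelled WT.

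The gelatinases, which cut denatured collagen and basement membrane collagen, did not go together. Mmp2, the gelatinase of stellate cells and fibroblasts, stood at 3.93 FPKM in the liver labelled SRSF2-KO and 0.402 FPKM in the liver labelled WT, a ratio of 9.79 (interval 5.67 to 19.1). Mmp9, the gelatinase of neutrophils and macrophages, stood at 0.456 FPKM in the liver labelled SRSF2-KO and 0.602 FPKM in the liver labelled WT, and its interval of 0.373 to 1.52 included 1. Whether the 2 ratios differ was not tested beyond these intervals, which do not overlap. The partners of MMP2 activation at the cell surface, Mmp14 and Timp2, were both higher as well. Mmp2 amounted to 0.452 times the level of Timp2 in the liver labelled SRSF2-KO and 0.109 times in the liver labelled WT, and Mmp14 to 1.88 (SRSF2-KO) and 1.36 (WT) times the level of Timp2.

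Mmp12, the metalloelastase that macrophages secrete, had the widest gap of all members. It stood at 6.05 FPKM in the liver labelled SRSF2-KO and 0.166 FPKM in the liver labelled WT, a log2 ratio of 2.60. The ratio was 36.4, with an interval of 12.8 to 124 from an estimated 168 (SRSF2-KO) and 4 (WT) fragments. Only 65 of the 11428 measured rows (0.569%) had a higher log2 ratio. Mmp12 lies in a run of 10 neighbouring Mmp genes on chromosome 9, in the RefSeq order Mmp13, Mmp12, Mmp1b, Mmp3, Mmp1a, Mmp10, Mmp8, Mmp27, Mmp20 and Mmp7. No other gene of this run reached 1 FPKM in either library, and 5 were listed at 0 in both. Mmp13, the main interstitial collagenase of rodents, stood at 0.517 FPKM in the liver labelled SRSF2-KO and 0.0431 FPKM in the liver labelled WT, a ratio of 11.99 (interval 3.14 to 106) from an estimated 31 (SRSF2-KO) and 2 (WT) fragments. Mmp27 was at 0.561 FPKM in the liver labelled SRSF2-KO and 0.270 FPKM in the liver labelled WT, with an interval of 0.839 to 5.22 that included 1. Mmp8, the neutrophil collagenase, and Mmp7, matrilysin, were at 0.149 and 0.0996 FPKM in the liver labelled SRSF2-KO, and both were listed at 0 in the liver labelled WT. AP-1 letters stood in the upstream windows of 7 of these 10 genes but not in those of Mmp12, Mmp8 and Mmp27. Of the 7, 5 were listed at 0 in both libraries and none reached 1 FPKM. Exons of Mmp12 and Mmp1b overlap on opposite strands, and Mmp1b was listed at 0 in both.

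Among the remaining MMPs, Mmp19 was the one measured MMP with a lower level in the liver labelled SRSF2-KO. This protease of basement membrane proteins stood at 10.1 FPKM in the liver labelled SRSF2-KO and 13.3 FPKM in the liver labelled WT, a ratio of 0.758 (interval 0.679 to 0.845). Its share of all MMP transcript was 12.4% in the liver labelled SRSF2-KO and 38.6% in the liver labelled WT, where it stood level with Mmp15 (38.7%). Exons of Mmp19 overlap those of Tmem198b on the opposite strand, at 8.11 FPKM in the liver labelled SRSF2-KO and 9.10 FPKM in the liver labelled WT. Mmp23, a small MMP anchored through its N-terminal part, stood at 1.82 FPKM in the liver labelled SRSF2-KO and 0.528 FPKM in the liver labelled WT, a ratio of 3.45 (interval 1.85 to 6.83). Mmp11 (stromelysin 3), known from the stroma around tumours, stood at 1.39 FPKM in the liver labelled SRSF2-KO and 0.465 FPKM in the liver labelled WT, a ratio of 2.98 (interval 1.39 to 6.47). Mmp11 overlaps exons of Chchd10, at 327 FPKM in the liver labelled SRSF2-KO and 528 FPKM in the liver labelled WT, on the opposite strand, so its low values are uncertain. The other stromelysin genes, Mmp3 and Mmp10, were listed at 0 in both. Over all 23 Mmp genes the summed level was 81.5 FPKM in the liver labelled SRSF2-KO and 34.5 FPKM in the liver labelled WT. Divided by the summed Timp level, this was 3.91 in the liver labelled SRSF2-KO and 3.04 in the liver labelled WT, with Mmp15 alone giving 48.4% of the MMP sum in the liver labelled SRSF2-KO.

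**Figure D2:**
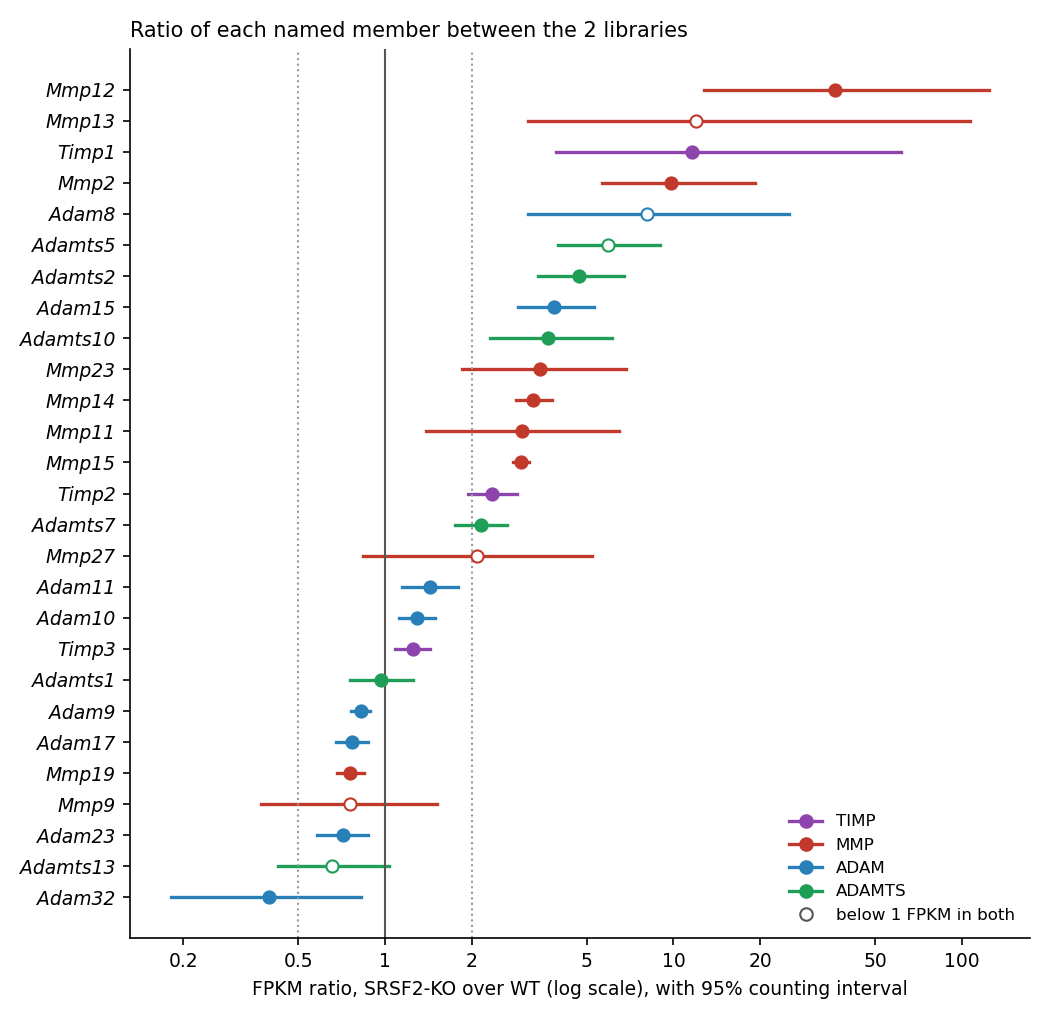
Ratio of FPKM, SRSF2-KO over WT, on a log axis for the 27 named members with values above 0 in both libraries, ordered by ratio, with bars for the 95% counting interval; open points are below 1 FPKM in both libraries, the solid line marks a ratio of 1 and dotted lines mark 2-fold. The interval lies above 1 for 18 members, below 1 for 5 and includes 1 for 4. Some members below 1 FPKM were named because of their wide log2 ratio, so these counts are not free of that choice. Among the 21 measured members alone the counts are 15, 5 and 1, and no such count was made over all rows. Mmp12, Mmp13 and Timp1 have the widest intervals, with 2 to 4 estimated fragments in the liver labelled WT.

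The ADAM genes showed no common direction. Adam9, a sheddase with a disintegrin domain, was the most abundant, at 15.4 FPKM in the liver labelled SRSF2-KO and 18.7 FPKM in the liver labelled WT (ratio 0.825, interval 0.765 to 0.890), and its log2 ratio of -0.26 turned to 0.07 with TPM rescaling. Adam10, the sheddase that starts Notch cleavage, stood at 8.40 FPKM in the liver labelled SRSF2-KO and 6.51 FPKM in the liver labelled WT, a ratio of 1.29 (interval 1.12 to 1.49). Adam17, which releases TNF and EGF receptor ligands, stood at 4.74 FPKM in the liver labelled SRSF2-KO and 6.18 FPKM in the liver labelled WT, a ratio of 0.767 (interval 0.676 to 0.870). Both lay within 1.5-fold, on opposite sides of 1. The level of Adam10 was 1.77 times that of Adam17 in the liver labelled SRSF2-KO and 1.05 times in the liver labelled WT. Adam17 overlaps exons of Iah1 on the opposite strand, at 70.8 FPKM in the liver labelled SRSF2-KO and 92.7 FPKM in the liver labelled WT, and reads of the overlap cannot be told apart without strand.

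Adam15, a disintegrin protease that binds integrins, was the exception in this family. It stood at 4.06 FPKM in the liver labelled SRSF2-KO and 1.05 FPKM in the liver labelled WT, a ratio of 3.86 (interval 2.89 to 5.31). An antisense gene with overlapping exons, 4731419I09Rik, is annotated at Adam15. Adam8, a protease of leukocytes, stayed below 1 FPKM, at 0.683 FPKM in the liver labelled SRSF2-KO and 0.0842 FPKM in the liver labelled WT, a ratio of 8.10 (interval 3.12 to 25.1). The neural ADAMs without protease activity were at low levels. Adam11 stood at 1.998 FPKM in the liver labelled SRSF2-KO and 1.40 FPKM in the liver labelled WT (interval of the ratio 1.14 to 1.79), and Adam23 at 1.29 (SRSF2-KO) and 1.80 (WT) FPKM (interval 0.583 to 0.875). Adam32, a gene best known from testis, stood at 0.414 FPKM in the liver labelled SRSF2-KO and 1.05 FPKM in the liver labelled WT, a ratio of 0.396 (interval 0.181 to 0.827), with a log2 ratio of -0.53. Of the 33 Adam genes, 17 were listed at 0 in both libraries. The summed level of the family was 38.1 FPKM in the liver labelled SRSF2-KO and 37.5 FPKM in the liver labelled WT.

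The ADAMTS genes were low in liver, with 4 of 19 measured and none 2-fold apart on the scale with the pseudocount. Adamts2, which removes the N-propeptide of fibrillar procollagens, stood at 1.44 FPKM in the liver labelled SRSF2-KO and 0.307 FPKM in the liver labelled WT, a ratio of 4.70 (interval 3.40 to 6.73) and a log2 ratio of 0.90. All 3 genes of the procollagen-processing class had the higher value in the liver labelled SRSF2-KO, with Adamts14 at 0.344 FPKM in the liver labelled SRSF2-KO and 0.114 FPKM in the liver labelled WT. Adamts10, which binds fibrillin microfibrils, stood at 1.78 FPKM in the liver labelled SRSF2-KO and 0.484 FPKM in the liver labelled WT, a ratio of 3.67 (interval 2.31 to 6.14). Adamts7, a protease of cartilage oligomeric matrix protein, stood at 2.79 FPKM in the liver labelled SRSF2-KO and 1.30 FPKM in the liver labelled WT (ratio 2.14, interval 1.75 to 2.65), and its exons overlap those of Tbc1d2b on the opposite strand (5.46 FPKM in SRSF2-KO and 3.95 FPKM in WT).

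Of 7 proteoglycan-cleaving members, 4 had the higher value in the liver labelled SRSF2-KO and 1, Adamts1, in the liver labelled WT. The other 2 were listed at 0 in both, and Adamts1 alone was measured. Adamts1 and Adamts5 lie side by side on chromosome 16 and both cut aggrecan and versican. Adamts1 stood at 1.72 FPKM in the liver labelled SRSF2-KO and 1.77 FPKM in the liver labelled WT, with an interval of 0.755 to 1.25, and its log2 ratio of -0.03 turned to 0.22 with TPM rescaling. Adamts5 stood at 0.831 FPKM in the liver labelled SRSF2-KO and 0.141 FPKM in the liver labelled WT, a ratio of 5.91 (interval 3.99 to 9.01). The intervals of this pair do not overlap. Adamts13, which cuts von Willebrand factor and is made mainly by hepatic stellate cells, stood at 0.425 FPKM in the liver labelled SRSF2-KO and 0.647 FPKM in the liver labelled WT, with an interval of 0.424 to 1.03 that included 1. Summed over the family, the level was 10.4 FPKM in the liver labelled SRSF2-KO and 5.32 FPKM in the liver labelled WT.

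Low values in general were more often higher in the liver labelled SRSF2-KO, which also had the larger estimated depth. Of the 31 members above 0 but below 1 FPKM in both libraries, 26 (83.9%) had the higher value in the liver labelled SRSF2-KO and 5 in the liver labelled WT, beside 62.9% higher in the liver labelled SRSF2-KO among all 7007 such rows of the table. In none of the 31 was the liver labelled SRSF2-KO listed at 0, against 10.9% of those rows, and in 9 (29.0%) the liver labelled WT was, against 24.6%. The sum of the 31 was 7.04 FPKM in the liver labelled SRSF2-KO and 3.47 FPKM in the liver labelled WT.

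**Figure D3:**
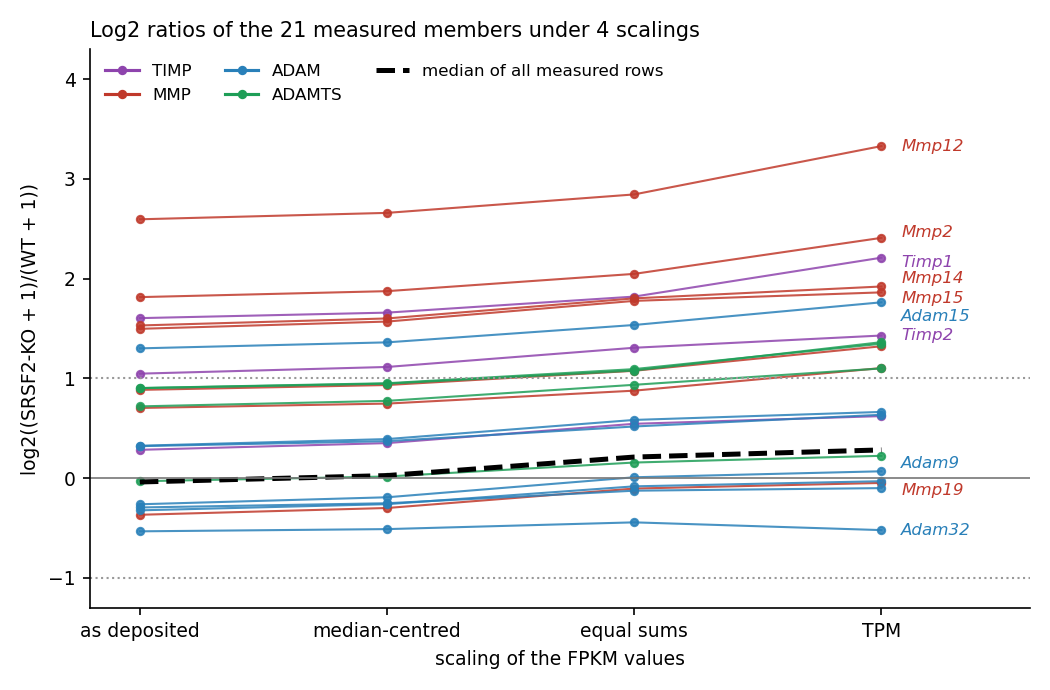
Log2 ratio with a pseudocount of 1 for the 21 measured members, as deposited and under median-centred, equal-sum and TPM rescalings, coloured by family; the dashed line is the median of all measured rows and dotted lines mark 2-fold. The order of the leading genes stays the same, Mmp12 lies highest in each, and Adam9 and Adamts1 are the members that cross 0.

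The FPKM of the libraries do not sum to the same total, so a common offset depends on the scaling. Rescaling moved the median log2 ratio of all measured rows to 0.03 (median-centred), 0.21 (equal sums outside the 50 most abundant rows) and 0.28 (TPM), against -0.04 as deposited. The 7 genes kept log2 ratios of at least 1 under all 3 rescalings. With TPM, Adamts2 (1.36), Adamts10 (1.35), Mmp23 (1.32), Adamts7 (1.10) and Mmp11 (1.10) passed 1 as well, as did Adamts5 (1.10) and Adam8 (1.03), which are below 1 FPKM as deposited, so that 14 of the 24 members measured on the TPM scale did, beside 10.8% of all rows. With equal sums Adamts10 (1.09), Adamts2 (1.08) and Mmp23 (1.08) joined the 7, giving 10 of 22, beside 8.27% of all rows. Among the 6 measured members below 0 as deposited, Adam9 and Adamts1 changed sign under a rescaling, and Adam17, Adam23, Adam32 and Mmp19 did not. With TPM, however, Adam17 (-0.03), Mmp19 (-0.05) and Adam23 (-0.10) came close to no difference, while Adam32 stayed at -0.52. Adam9, at 0.07 with TPM rescaling, still lay below the median of all rows on that scale.

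Markers of cell types that make these proteases differed between the libraries as well. Beside the counts given here, 46.1% of all measured rows and 52.5% of all rows above 0 in a library were higher in the liver labelled SRSF2-KO. Of 11 stellate cell and fibroblast markers, 9 were higher there and 2 lower, and none was at 0. Among the higher ones, the intervals of Des and Reln included 1. The summed level of the 11 was 213 FPKM in the liver labelled SRSF2-KO and 109 FPKM in the liver labelled WT. Most of both sums was Dcn, at 128 (SRSF2-KO) and 82.7 (WT) FPKM. Of 12 macrophage and Kupffer cell markers, 5 were higher and 7 lower, none was at 0, and they summed to 99.0 FPKM in the liver labelled SRSF2-KO and 136 FPKM in the liver labelled WT. Their members went opposite ways. The Kupffer cell genes Clec4f, at 18.3 (SRSF2-KO) and 41.5 (WT) FPKM, and Cd5l, at 18.9 (SRSF2-KO) and 43.0 (WT) FPKM, were lower. Gpnmb, at 3.38 (SRSF2-KO) and 0.0139 (WT) FPKM, Trem2, at 5.22 (SRSF2-KO) and 0.387 (WT) FPKM, and Cd14, at 8.25 (SRSF2-KO) and 1.35 (WT) FPKM, were higher, as Mmp12 was. Of 9 neutrophil markers, 4 were higher and 4 lower, and they summed to 27.0 FPKM in the liver labelled SRSF2-KO and 9.20 FPKM in the liver labelled WT, most of it from S100a9 at 15.9 (SRSF2-KO) and 5.97 (WT) FPKM and S100a8 at 8.45 (SRSF2-KO) and 1.32 (WT) FPKM, with Ly6g listed at 0 in both and Mpo at 0 in the liver labelled SRSF2-KO. Of the 10 endothelial markers 8 were lower, none was at 0, and the sums were 82.5 (SRSF2-KO) and 122 (WT) FPKM. Of 7 lymphocyte markers 6 were higher and of 4 mesothelial ones 1. Below 1 FPKM in both libraries were 5 of the lymphocyte and 3 of the mesothelial markers. Among the higher lymphocyte markers, the intervals of Cd3e, Ms4a1 and Nkg7 included 1. The lymphocyte markers summed to 6.74 (SRSF2-KO) and 2.13 (WT) FPKM and the mesothelial ones to 2.09 (SRSF2-KO) and 1.46 (WT) FPKM, with none at 0. Of 6 hepatocyte markers, all but Alb were lower, and they summed to 13889 (SRSF2-KO) and 23299 (WT) FPKM. Bile duct markers, of which 4 of 6 were higher, summed to 279 FPKM in the liver labelled SRSF2-KO and 26.4 FPKM in the liver labelled WT. Most of that sum was Spp1, at 266 (SRSF2-KO) and 21.9 (WT) FPKM. The duct keratin genes Krt19, at 0.426 (SRSF2-KO) and 1.10 (WT) FPKM, and Krt7, at 0.301 (SRSF2-KO) and 0.388 (WT) FPKM, were lower. The 4 erythroid genes, all lower, summed to 308 (SRSF2-KO) and 523 (WT) FPKM, and neither the bile duct nor the erythroid list had a member at 0. The part of these differences in the levels of Mmp2, Mmp12, Mmp14, Timp1 and the other members was not tested.

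Genes that act with these proteases went several ways, beside the 5.49% and 3.22% of all measured rows that were at least 2-fold higher or lower and their median log2 ratio of -0.04. In the plasminogen system, a serine protease cascade that also activates MMP precursors, 1 of 5 measured genes was at least 2-fold higher and another at least 2-fold lower in the liver labelled SRSF2-KO. Plat, the tissue plasminogen activator, stood at 1.93 FPKM in the liver labelled SRSF2-KO and 0.109 FPKM in the liver labelled WT, and Serpine2, the inhibitor protease nexin 1, at 2.34 (SRSF2-KO) and 7.25 (WT) FPKM. Plat reached 1 FPKM only in the liver labelled SRSF2-KO. The median log2 ratio of this list was -0.30. Proprotein convertases, which cut the propeptides of membrane-type MMPs and ADAMs, included 1 of 5 genes at least 2-fold lower, Pcsk4 at 4.52 FPKM in the liver labelled SRSF2-KO and 19.1 FPKM in the liver labelled WT, while Furin, the main convertase for these enzymes, was at 50.9 (SRSF2-KO) and 59.3 (WT) FPKM.

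Among 5 other measured metalloproteases and their enhancers, Pcolce, which promotes removal of the procollagen C-propeptide, was the one at least 2-fold higher, at 8.27 FPKM in the liver labelled SRSF2-KO and 3.20 FPKM in the liver labelled WT, whereas Bmp1, the protease it enhances, was at 18.0 (SRSF2-KO) and 19.2 (WT) FPKM. Sparc, a collagen-binding matrix protein, was the one of 6 other inhibitors and regulators at least 2-fold higher, at 32.3 FPKM in the liver labelled SRSF2-KO and 14.6 FPKM in the liver labelled WT. Reck, a membrane-bound inhibitor of MMP14, MMP2 and MMP9, was at 0.465 FPKM in the liver labelled SRSF2-KO and 0.562 FPKM in the liver labelled WT. Adamtsl2, an ADAMTS-like gene whose protein lacks the protease domain, stood at 8.89 FPKM in the liver labelled SRSF2-KO and 0.765 FPKM in the liver labelled WT, a ratio of 11.6 (interval 8.74 to 15.7). It was the 1 gene at least 2-fold apart of 2 measured in its list, and it exceeded every Adamts gene in the liver labelled SRSF2-KO. Both measured genes of that list reached 1 FPKM only in the liver labelled SRSF2-KO. Of the aggregating proteoglycans and their hyaluronan partners, which include the ADAMTS substrates aggrecan and versican, 2 of 10 were measured and neither was 2-fold apart, and the aggrecan gene Acan was listed at 0 in both. The versican gene Vcan, just below the minimum, stood at 0.960 FPKM in the liver labelled SRSF2-KO and 0.0254 FPKM in the liver labelled WT, a log2 ratio of 0.93, and its ratio of 37.8 had a wide interval of 6.82 to 1601.

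Partners of ADAM10 and ADAM17 showed 0 of 6 measured genes 2-fold apart, including Rhbdf1 and Rhbdf2, which carry ADAM17 to the cell surface, with a median log2 ratio of 0.17. Of 21 measured substrates of ADAM10 or ADAM17, 5 were at least 2-fold higher, and 1 lower by 2-fold or more, in the liver labelled SRSF2-KO, with a median of 0.20. The higher ones were Btc (betacellulin, an EGF receptor ligand) at 2.89 FPKM in the liver labelled SRSF2-KO and 0.561 FPKM in the liver labelled WT, Icam1 (a leukocyte adhesion receptor) at 6.18 (SRSF2-KO) and 1.82 (WT) FPKM, the membrane-bound chemokine genes Cx3cl1 at 1.63 (SRSF2-KO) and 0.168 (WT) FPKM and Cxcl16 at 8.29 (SRSF2-KO) and 3.46 (WT) FPKM, and the E-cadherin gene Cdh1 at 31.5 (SRSF2-KO) and 4.43 (WT) FPKM. The ratio of Cx3cl1 had a wide interval of 1.41 to 408. Btc and Cx3cl1 reached 1 FPKM only in the liver labelled SRSF2-KO. Of the 18 substrates with at least 1 FPKM in both libraries, 3 were at least 2-fold higher, beside 3.17% of all rows chosen in that way. Il6ra, the interleukin 6 receptor released by shedding, was the lower one, at 6.45 FPKM in the liver labelled SRSF2-KO and 19.0 FPKM in the liver labelled WT, a ratio of 0.340 (interval 0.314 to 0.368).

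**Figure D4:**
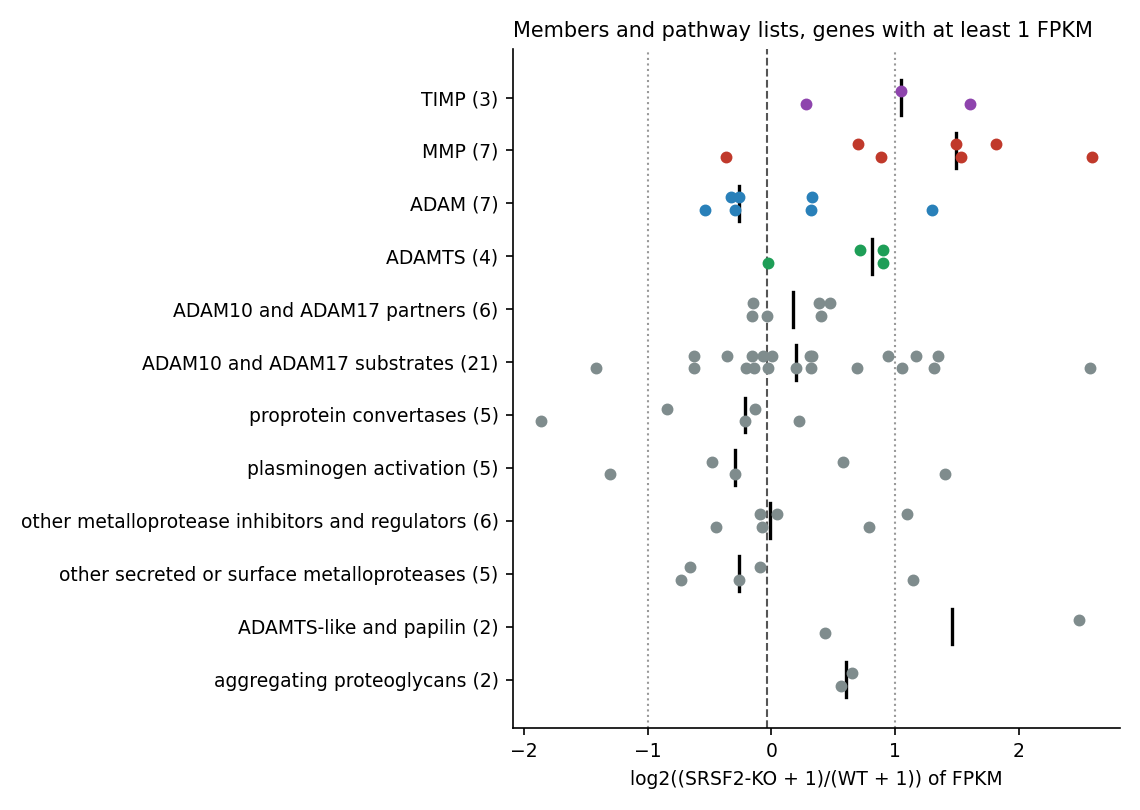
Log2 ratio with a pseudocount of 1 for measured members by family (coloured) and for measured genes of 8 lists of related genes (grey), with the number of genes in brackets; black bars are medians, the dashed line is the median of all measured rows and dotted lines mark 2-fold. MMP and TIMP genes have medians of 1.50 and 1.05, and ADAM genes one of -0.26. These medians depend on the minimum of 1 FPKM. It was passed only in the liver labelled SRSF2-KO by 4 of 7 MMP and 1 of 3 TIMP genes, and only in the liver labelled WT by 1 of 7 ADAM genes.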

How the data were processed

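The authors deposited 1 table of FPKM with 1 value per gene row and library, and per the labels the libraries followed standard Illumina protocols on Trizol-extracted RNA. Per the submitters' processing notes, Bowtie 0.12.2 and mm9 were used. The sources used here give neither the FPKM program nor the annotation, strandedness or filters. Columns were assigned to libraries by their names. Log2 ratios used a pseudocount of 1 FPKM, and called genes were at least 2-fold apart with at least 1 FPKM in a library. Depth was fitted on genes that have only 1 transcript in GENCODE M21, 1000 to 8000 bases long (length offset 180 bases). Among values worth 0.5 to 3.5 reads, 71.6% (469 genes) in the liver labelled SRSF2-KO and 74.9% (435 genes) in the liver labelled WT came within 0.1 reads of a whole number. Intervals used the median length of protein-coding transcripts of that annotation, which belongs to another build. Named were all measured members, the Timp genes, the 6 highest and the 4 with the widest log2 ratio among other members, and up to 4 genes each way per list at least 2-fold apart; Adamts14, Mmp7, Mmp8, Cxcl16 (the fifth higher gene of its list), cell type markers and list genes within 2-fold were named after their values were seen, and the 16 widely used or liver genes were looked up after Alb was seen at 0. Members and lists were chosen with earlier results of these data known. Of the list symbols, Plgrkt and Adgre1 (present as Emr1) had no row. Scripts, run with Python 3.11.15, pandas 2.3.3 and scipy 1.17.1, were tested on simulated data.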

Additional observations from a re-analysis of the deposited data

How the results depend on the processing

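No paired analysis was possible because each genotype had 1 library. The count of members at least 2-fold higher in the liver labelled SRSF2-KO, 7 of 21, was 12 with a pseudocount of 0.1, 4 with a pseudocount of 3, 4 of 9 at 5 FPKM, 4 of 13 with at least 1 FPKM in both libraries, 4 of 14 with at least 1 FPKM in the liver labelled WT (chosen after seeing the data) and 14 of 24 with TPM rescaling. Over all rows the shares at these settings were 9.27%, 2.75%, 5.23%, 3.17%, 3.07% and 10.8%. The count lower was 0 in all these settings except the pseudocount of 0.1, where it was 1 (Adam32), beside 4.82% of all rows. The median log2 ratio stayed above 0 in all settings run, from 0.15 without a filter to 1.21 with a pseudocount of 0.1. Over all rows the median was 0.02 without a filter and -0.05 with a pseudocount of 0.1. With TPM rescaling the median was 1.10 for members and 0.28 for all rows, and with equal sums 0.91 and 0.21. Summing rows of repeated symbols could not change these values, because each member has a single row. Among 41 named members, list genes and Srsf2, no gene at least 2-fold apart changed sign under a rescaling or another pseudocount, and the log2 ratio moved by more than its counting interval or changed sign in 19 genes with TPM, 13 with equal sums, 1 with median-centring, 14 with a pseudocount of 0.1 and 10 with one of 3. Mmp24 and Timp4 have no counting interval, and a fixed limit of 0.1 in log2 ratio was used for them in these counts. Depth limits Timp1, Mmp12 and Mmp13, with 2 to 4 estimated fragments in the liver labelled WT.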
